A study of Homo sapiens with 7 samples.

Results

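The regions described here are sites of Rb binding that were called after palbociclib and not with DMSO, and that lie over pairs of protein-coding genes transcribed away from each other. A region was formed by joining overlapping peaks of both parental palbociclib libraries on chromosomes 1 to 22 and X, and it was selected on having no overlap with a peak of either parental DMSO library. Of 6644 such palbociclib regions, 5520 were gained in this sense, which is 83.1%. A gained region was a member when it overlapped the promoters of 2 protein-coding genes on opposite strands whose transcription start sites (TSSs) lay head to head within 1000 bp of each other. A promoter ran from 2000 bp upstream to 500 bp downstream of a TSS. This left 645 members among the 5520 gained regions, covering 661 gene pairs and 1281 genes. Of the members, 614 held 1 pair, 29 held 2 and 2 held 3, and 16 pairs were spread over more than 1 member. Because the members were chosen by their peak calls, their gain and their peak strength are given as a description.

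All libraries were made from ZR-75-1 cells, a long-cultured line of breast cancer that carries the oestrogen receptor. Parental cells were profiled with an Rb antibody after 4 days in DMSO (2 libraries) or in 500 nM palbociclib (2 libraries). Cells with RB1 knocked out (RB1 KO) gave 1 Rb library with DMSO and 1 with palbociclib over the same 4 days, and parental cells with palbociclib gave 1 library with a mouse IgG2a antibody that recognises no target. Knockout lines were grown from single sorted cells, so a line is a clone. The replicates are described as separate biological replicates of an experiment performed once.

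Palbociclib inhibits CDK4 and CDK6, the kinases that phosphorylate Rb in G1. Unphosphorylated Rb binds E2F transcription factors at promoters of genes needed for DNA replication and division. Divergent gene pairs share the stretch of DNA between their start sites, often a CpG island with few TATA boxes, and many encode proteins of DNA repair, the cell cycle and mitochondria. CUT&RUN maps such binding through an antibody-directed nuclease that releases the DNA around the bound protein for sequencing.

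The DNA that lies between both start sites is shown for the members where it could be printed without reaching an annotated exon. It had to be 30 to 300 bp long, which held for 101 members on chromosomes other than 8. Shown first are 4 of the best-ranked of these by −log10 q, followed by the best-ranked member with an E2F, an NRF1 or an ETS motif in that stretch. Each line reads 5′ to 3′ on the plus strand of GRCh38, from the start site of the minus-strand gene, named first, to that of the plus-strand gene. Capitals mark, on either strand, ETS (CCGGAAGT), NRF1 (GCGCATGC), CRE (TGACGTCA), YY1 (AAGATGGC), CCAAT, the core bound by NF-Y, and E2F (TTTCCCGC, TTTCGCGC, TTTGCCGC or TTTGGCGC).
MBOAT7/TSEN34: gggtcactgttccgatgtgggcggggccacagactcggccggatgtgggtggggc
SMG6/SRR: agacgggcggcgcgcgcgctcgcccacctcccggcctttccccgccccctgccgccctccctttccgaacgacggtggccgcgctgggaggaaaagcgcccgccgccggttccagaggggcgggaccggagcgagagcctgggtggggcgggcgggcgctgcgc
STMN3/RTEL1: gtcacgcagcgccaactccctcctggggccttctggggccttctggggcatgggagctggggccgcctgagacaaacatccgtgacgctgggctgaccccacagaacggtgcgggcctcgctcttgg
SARS2/MRPS12: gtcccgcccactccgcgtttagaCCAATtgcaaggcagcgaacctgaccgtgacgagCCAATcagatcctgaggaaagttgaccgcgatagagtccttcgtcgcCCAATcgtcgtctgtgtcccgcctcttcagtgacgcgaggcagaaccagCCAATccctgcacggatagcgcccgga
KIAA0825/SLF1: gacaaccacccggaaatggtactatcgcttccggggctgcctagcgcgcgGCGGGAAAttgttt
RRP12/PGAM1: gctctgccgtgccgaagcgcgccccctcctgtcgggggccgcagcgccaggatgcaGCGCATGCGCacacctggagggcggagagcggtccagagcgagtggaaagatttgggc
HEATR5B/GPATCH11: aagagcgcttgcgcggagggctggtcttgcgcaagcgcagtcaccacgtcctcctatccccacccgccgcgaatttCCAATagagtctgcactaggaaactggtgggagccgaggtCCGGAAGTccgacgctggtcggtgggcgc
The stretches lie at chr19:54189883-54189937, chr17:2303786-2303949, chr20:63657683-63657809, chr19:38930764-38930943, chr5:94618605-94618668, chr10:97426077-97426190 and chr2:37084373-37084517, in that order. They were chosen by the start sites and need not lie under the Rb summit. The stretch of STMN3/RTEL1 lies outside its member region, chr20:63658237-63659019, whose summits lay 744 and 658 bp from the midpoint between the start sites. At MBOAT7/TSEN34 the summits lay 443 and 442 bp from that midpoint. The stretch of SARS2/MRPS12, a mitochondrial seryl-tRNA synthetase beside a mitochondrial ribosomal protein, holds 4 copies of CCAAT and 18 CpG dinucleotides in 180 bp. The stretch of SMG6/SRR, a nonsense-mediated decay nuclease beside serine racemase, holds none of the marked motifs and 6 matches to GGGCGG, the core bound by SP and KLF factors, which is left in lower case. KIAA0825/SLF1 carries its E2F match next to the start site of SLF1, a factor that recruits SMC5/6 to damaged DNA. Among the 101 stretches, 30 held CCAAT, 71 held GGGCGG, 8 held ETS, 4 held E2F, 3 held NRF1 and none held CRE or YY1.

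The parental DMSO lists held 922 and 753 peaks on these chromosomes and the palbociclib lists 8314 and 8171. Each list carries, for every peak, a fold enrichment, in which the pileup of fragments at the summit, plus 1, is divided by the local background, plus 1. The depth of the libraries is not in these lists. The weakest −log10 p was 5.23 and 5.33 in the DMSO lists and 4.15 in both palbociclib lists, so a peak of equal strength could be called with palbociclib and missed with DMSO. With 1 common limit on −log10 p at 5.33, the members numbered 600. With every list held to its 753 best peaks, 16 members were left, so the number of members rests on the longer palbociclib lists. No member overlapped a peak of either RB1 KO library. These libraries gave only 4 and 5 peaks on the chromosomes, with 1 at a protein-coding promoter in each. Hardly any member could have overlapped one, so this count says little about RB1 KO signal at members. The overlap of all gained regions with these peaks was not counted. The IgG2a library had a peak at 8 members, 1.24% of them. The authors called the Rb peaks against an IgG control, which can itself lower this overlap. The same share over all gained regions was not counted, so 1.24% is not read as low for members. The intervals given below cover counting error only.

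The members were spread over a wide range of peak strength. Their fold enrichment ran from 2.74 to 35.6 in palbociclib replicate 1, with a median of 7.65, and from 2.81 to 33.5 in replicate 2, with a median of 7.49. Behind these ratios stood a median pileup of 19 fragments in each replicate, over a median background of 1.45 and 1.56. Gained regions at the promoter of 1 protein-coding gene, of which there were 4061, had medians of 7.31 and 7.13. The ratio of the medians, members over these single-gene regions, was 1.05 in both replicates. The peaks of members were also wider, with medians of 547 and 509 bp against 489 and 471 bp, a ratio of 1.10 ± 0.0268 (SD, n = 2 libraries). Width is tied to the choice of both sets, since a member had to reach 2 promoters and a single-gene region those of only 1 gene. The part of the width difference that goes with this was not tested. At divergent pairs that had a peak in both DMSO libraries as well (97 regions, called kept below), the medians were 27.6 and 26.2, and at the 110 regions with a peak in 1 DMSO library they were 14.2 and 14.4. Members therefore stood below both other classes of divergent pair in each replicate. These orders are descriptions, since strength in the palbociclib lists belongs to the contrast that chose the members.

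Both replicates gave members much the same strength. The log2 ratio of fold enrichment, replicate 2 over replicate 1, had a median of −0.02 and an SD of 0.43 over members, and 629 members (97.5%) lay within 1 log2 unit. TRMT6/MCM8 had the largest gap, with 4.57 in replicate 1 and 11.8 in replicate 2, or 8 and 21 fragments. TRMT6 belongs to a tRNA methyltransferase and MCM8 to a helicase of homologous recombination. NEURL2/CTSA had 2.74 and 7.03, and FBXO48/APLF, the latter a histone chaperone of DNA end joining, had 5.52 and 14.1. All 3 of these were stronger in replicate 2.

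**Figure D1:**
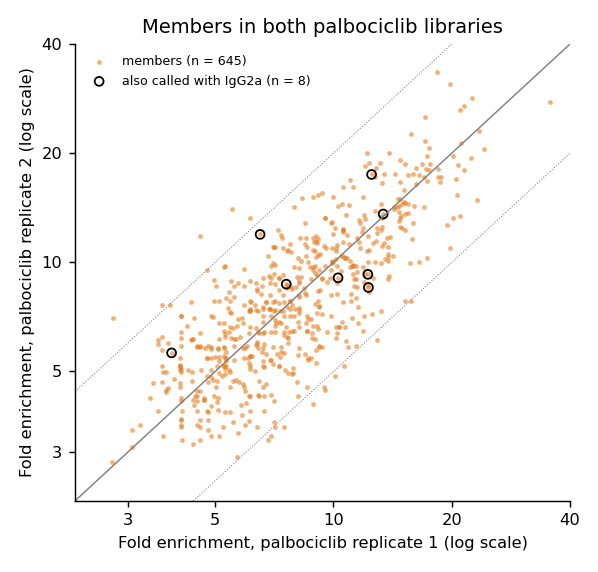
Fold enrichment of the 645 members in palbociclib replicate 1 (x axis) and replicate 2 (y axis), both on log scales. Each point is a member, circles mark the 8 members that also had an IgG2a peak, the solid line marks equal values and the dotted lines a 2-fold gap, within which 629 members lie.

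The best-ranked member lay over ARPC5/RGL1, where ARPC5 is a subunit of the actin-nucleating Arp2/3 complex and RGL1 an exchange factor for Ral GTPases. Its region at chr1:183635192-183636262 had a fold enrichment of 21.1 and 21.3 from 102 and 109 fragments, the largest pileup of any member in both replicates. PLAG1/CHCHD7, a zinc finger transcription factor beside a mitochondrial protein, had 22.5 and 28.4. KCTD9/CDCA2 had 35.6 and 27.8 over a background of 0.516 and 0.549, and CDCA2 (Repo-Man) recruits protein phosphatase 1 to anaphase chromatin. ARID4B/GGPS1, a subunit of the Sin3 corepressor complex beside an isoprenoid synthase, had 20.2 and 19.7, and its region held 2 pairs. NPRL2/CYB561D2, with a subunit of the GATOR1 complex that restrains mTORC1, ranked lower with 16.0 and 14.3 and also lay in a region of 2 pairs. The first 4 had values of 19.7 or more in both libraries.

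MBOAT7/TSEN34, an acyltransferase beside a tRNA splicing endonuclease subunit, had 23.5 and 23.03 in a region of 2631 bp, the widest of all members. IFT140/CRAMP1, the former a part of the intraflagellar transport machinery of cilia, had 20.5 and 16.96. SIRT2/NFKBIB, a deacetylase beside an inhibitor of NF-κB, had 21.5 and 27.0. CYB561A3/TMEM138 had 18.3 and 33.5, with 44 and 64 fragments, and TMEM138 acts at the ciliary transition zone. TXNL4A/RBFA, a spliceosome protein beside a mitochondrial ribosome assembly factor, had 12.5 and 17.5 and was one of the 8 members with an IgG2a peak. SEC31A/THAP9, the former a COPII coat protein, had 20.8 and 18.5. The lowest of these 20 values was the 12.5 of TXNL4A/RBFA in replicate 1.

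The IgG2a peaks lay, besides TXNL4A/RBFA, at TLCD3B and an unnamed gene (10.3 and 9.06), TTC13/ARV1 (13.4 and 13.6), TFB2M/CNST (7.58 and 8.71), CEP170/SDCCAG8 (12.3 and 8.53) and 3 others. The local background at TFB2M/CNST was 6.78 and 4.17 fragments, above the medians of all members. The part of antibody-independent signal in these 8 members was not tested.

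Over all 1467 divergent pairs in the annotation, the share reached by Rb was counted next. A gained region covered both promoters of 661 pairs, 45.1%, and any region shared by both palbociclib libraries covered 869 pairs, 59.2% (exact 95% binomial interval 56.7 to 61.8%). Of the 16789 protein-coding genes in no divergent pair, 24.6% had a gained region at a promoter and 29.2% had any shared region (interval 28.5 to 29.8%). A region had to reach both promoters of a pair but only a promoter of a gene, so the stretch searched differed in length. Windows of equal size were therefore compared too, 500 bp to each side of the midpoint between the start sites or of the canonical start site. A shared region then lay in 58.2% of 1467 pair windows and 27.3% of 16788 gene windows. CpG content moved with this difference. The ratio of observed to expected CpG, read over 250 bp to each side, was under 0.6 in 149 pair windows and in 5794 gene windows, where shared regions lay in 16.8% and 2.12%. At or above 0.6 they lay in 62.8% of 1318 pair windows (60.2 to 65.4%) and 40.5% of 10994 gene windows (39.6 to 41.4%). The pair windows were thus higher on both sides of that limit, and expression of the genes, which these lists do not hold, was not compared.

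Each pair was put in 1 class. Both DMSO libraries had a peak at 98 pairs (6.68%), 1 DMSO library at 117 (7.98%), and 654 were gained alone (44.6%), since 7 of the 661 pairs under a member also lay under a region of another class. Peaks that the palbociclib libraries did not share lay at 160 pairs (10.9%), and 438 (29.9%) had no parental Rb peak. Pairs with wider spacing were reached more often, but the stretch that counts also grows with the spacing. A region had to reach both promoters, and these overlap over the gap plus 500 bp to each side. Windows of equal size were not split by spacing, and the part of the rise that goes with this length was not tested. The share with a region in both palbociclib libraries was 51.2% of 379 pairs spaced by up to 100 bp, 52.8% at 101 to 200 bp, 65.2% at 201 to 400 bp, 68.8% at 401 to 700 bp and 69.2% of 104 pairs at 701 to 1000 bp. Most of this rise lay in the pairs that already had DMSO peaks. Pairs kept from DMSO went from 4.75% at the closest spacing to 13.5% at the widest, while gained pairs stayed between 41.2% and 49.0%.

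**Figure D2:**
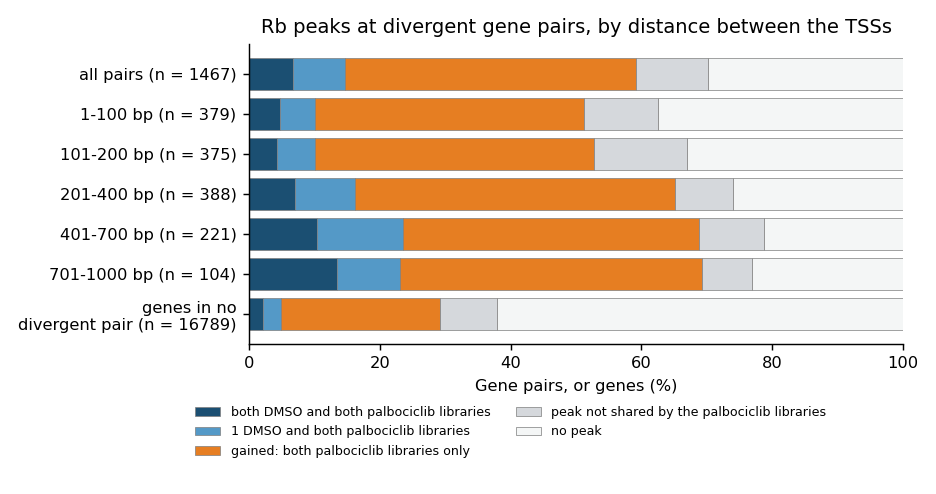
Share of divergent gene pairs in each class of Rb peak, for all 1467 pairs, for 5 ranges of the distance between the start sites and, in the bottom bar, for the 16789 genes in no divergent pair. Gained pairs (orange) make up 44.6% of all pairs, and pairs with peaks in both DMSO libraries (dark blue) make up 4.75% at the closest and 13.5% at the widest spacing.

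Divergent pairs took a smaller part of the palbociclib lists than of the DMSO lists, and most of that gap went with the length of the lists. They held 168 of 922 peaks (18.2%) and 144 of 753 peaks (19.1%) with DMSO, against 970 of 8314 (11.7%) and 974 of 8171 (11.9%) with palbociclib. The means were 18.7% ± 0.638 and 11.8% ± 0.179 (SD, n = 2 libraries each), and the groups did not overlap. The difference of −6.88 percentage points had p = 0.333 in a two-sided exact permutation test over the 4 libraries, the smallest p that 2 against 2 can give. With each list limited to its 753 best peaks, an alternative chosen after seeing the data, the shares were 18.5% and 19.1% with DMSO and 16.9% and 17.9% with palbociclib, a difference of −1.39 percentage points (p = 0.333, same exact permutation test). The difference between the full lists is therefore not given as a difference between treatments. Pairing the libraries by replicate number (replicate block) gave the same difference with p = 0.5 in an exact permutation by sign flips, the smallest that 2 pairs can give. In peaks at protein-coding promoters alone, the shares were 20.7% ± 0.352 and 13.8% ± 0.197. With IgG2a, 23 of 1724 peaks (1.33%) lay at divergent pairs. Among the regions shared by the palbociclib libraries, those at divergent pairs made up 20.8% of 466 kept regions (interval 17.2 to 24.8%), 16.7% of 658 with a peak in 1 DMSO library (13.9 to 19.8%) and 11.7% of 5520 gained regions (10.8 to 12.6%). Within the 4905 gained regions at protein-coding promoters, cut by rank into 5 equal groups, the strongest group held 15.3% at pairs (13.1 to 17.7%) and the weakest 12.03% (10.1 to 14.2%), and these intervals overlap.

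The position of the Rb summit between or beside both start sites was not used to choose members. The nearer of the start sites chosen for the pair lay a median of 112 bp from the summit in replicate 1 and 113 bp in replicate 2. The nearest start site of any transcript lay a median of 68 bp away in both replicates. Positions between or beside the start sites thus hold for the chosen start sites. The summit fell between both start sites in 240 members (37.2%) and 246 members (38.1%), a mean of 37.7% ± 0.658 (SD, n = 2 libraries). It lay inside the minus-strand gene in 217 and 212 members and inside the plus-strand gene in 188 and 187. Both replicates put the summit in the same of these 3 places in 528 members (81.9%), and only 11 members had it inside opposite genes. The summits of both replicates lay a median of 62 bp apart.

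Where the summit lay went with the spacing of the start sites. With a spacing of 1 to 100 bp, 7.14% and 10.0% of 140 members had it in between. The shares were 26.9% and 27.6% of 156 members at 101 to 200 bp, 49.2% and 51.3% of 195 at 201 to 400 bp, 60.0% and 57.0% of 100 at 401 to 700 bp, and 59.3% in both replicates of 54 at 701 to 1000 bp. The distance to the nearer start site changed less, with medians from 79.5 to 166.5 bp over all ranges and replicates. At the closest spacing the summit lay a median of 129 and 137 bp from a start site, which is farther than the start sites lay from each other. A summit therefore sat mostly beside the pair at close spacing and mostly in the gap at wide spacing. The stretch that counts as in between is the gap itself, so this share can grow with the spacing through its length alone. The part of the rise that goes with this length was not tested. For 438 members both start sites were the canonical ones, and the shares ran from 9.72% and 12.5% at the closest to 60.5% and 63.2% at the widest spacing. Kept regions at divergent pairs had a wider median spacing, 291 against 224 bp. At 201 to 1000 bp their summit lay in between in 68.3% and 65.1% of 63 regions, against 53.9% and 54.2% of 349 members, with intervals that overlap (55.3 to 79.4% against 48.5 to 59.2% in replicate 1). At 1 to 200 bp the shares were 14.7% and 17.6% of 34 kept regions against 17.6% and 19.3% of 296 members.

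**Figure D3:**
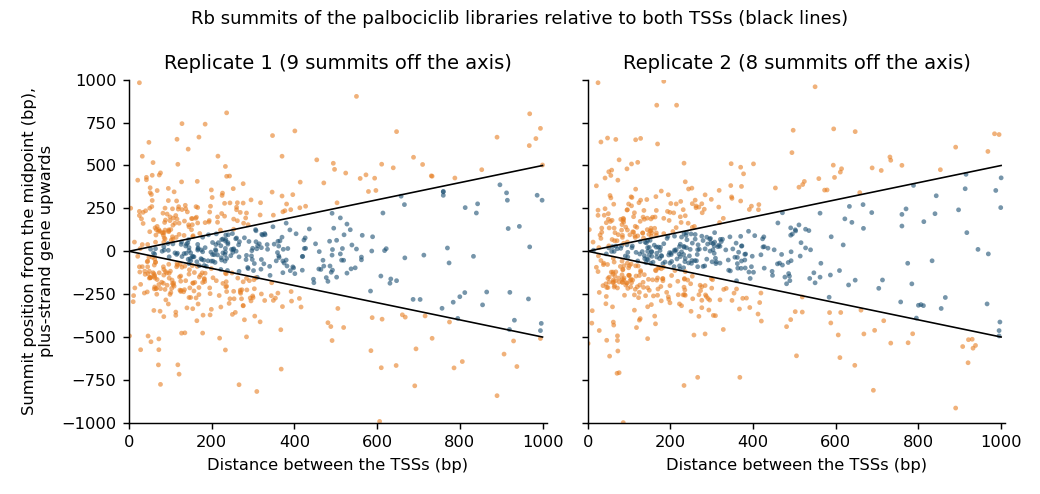
Position of the Rb summit of each of the 645 members, in bp from the midpoint between the start sites (y axis, positive towards the plus-strand gene), against the distance between the start sites in bp (x axis), for each palbociclib replicate. Black lines mark both start sites, blue points lie between them (240 and 246 members), orange points lie beside them, and 9 and 8 summits fall beyond 1000 bp and are not drawn.

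Joined regions had a median width of 649 bp, from 182 to 2631 bp. They covered both start sites in 337 members (52.2%), 1 of them in 213 (33.0%) and neither in 95 (14.7%). By the start sites used, the members farthest from their pair lay well inside a gene. At CFL1/MUS81, cofilin beside a structure-specific nuclease, the summits of the best-ranked of 3 member regions lay 1228.5 and 1179.5 bp from the midpoint on the MUS81 side, with 17.3 and 16.8 fold enrichment. The other regions of this pair were measured from other start sites. Their start site of MUS81, at chr11:65860062, lies past the summits given here, which are upstream of it. At TRADD/FBXL8, a TNF receptor adaptor beside an F-box protein, they lay 1092 and 1107 bp away on the FBXL8 side, and at PSD/FBXL15 1797.5 and 713.5 bp away. On the other side, GPANK1/CSNK2B had them at −1037.5 and −1238.5 bp and LKAAEAR1/OPRL1 at −1071 and −1111 bp. At ENSG00000241489/EOLA1, whose first gene has no name, the summits lay at −1096 and −999 bp, with 8.17 and 9.66 fold enrichment. Both start sites were canonical at TRADD/FBXL8 and at EOLA1, and at least 1 was not at the others.

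Spacing itself ran from 1 to 1000 bp. NOXO1/GFER had start sites 1 bp apart, with 5.92 and 5.45 fold enrichment and summits at −493.5 and −537.5 bp from the midpoint, on the NOXO1 side. SLC20A2/SMIM19 had 4 bp and fold enrichments of 12.9 and 6.10, and GPANK1/CSNK2B, the latter a subunit of casein kinase 2, had 9 bp with 20.1 and 13.3. At the other end, ATP6V1G2/NFKBIL1 had 1000 bp with 5.94 and 5.81, HNRNPA2B1/CBX3 had 999 bp with 8.62 and 6.99, and PRADC1/CCT7 had 997 bp with 8.85 and 9.73. CBX3 encodes heterochromatin protein HP1γ and CCT7 a chaperonin subunit. By the closest start sites of each pair, PRADC1/CCT7 lay just inside the 1000 bp limit, while TNNC1/NISCH at 1077 bp, with 6.52 and 9.25, lay outside and was left out. SMIM7/TMEM38A and PSMB1/TBP, both at 995 bp, had 17.03 and 14.2, and 3.67 and 5.19, so the values just inside the limit spanned those of the pair outside.

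Genes of DNA replication and repair were named from general knowledge with earlier results of these data known, so the counts are descriptions. The list is not complete and lacks SLF1 and RTEL1, for example, so the counts cover listed genes only. In all, 73 divergent pairs held a listed gene. A region shared by both palbociclib libraries covered 62 of them (84.9%) beside 59.2% of all divergent pairs, and a gained region covered 32 (43.8%) beside 45.1% of all. The excess lay in pairs with DMSO peaks, 14 kept and 16 with a peak in 1 DMSO library. The 34 member regions had median fold enrichments of 9.71 and 9.73, above those of all members. The best-ranked after CFL1/MUS81 was AP4B1/DCLRE1B, with 13.8 and 20.01, where DCLRE1B (Apollo) protects telomeres. RECQL4/LRRC14, with a helicase of replication, had 15.5 and 13.7, and ORC4/MBD5, with a subunit of the origin recognition complex, had 15.7 and 22.6.

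TK1/AFMID, with the thymidine kinase of S phase, had 10.8 and 13.5. TPRA1/MCM2, with a subunit of the replicative helicase, had 15.7 and 9.98, from 45 and 35 fragments, and an E2F motif at its summit. ORMDL1/PMS1, with a mismatch repair protein, had 15.1 and 14.7, and CERT1/POLK, with a translesion polymerase, had 14.3 and 14.1. In 22 and 23 of the 34 members, in replicates 1 and 2, the summit lay nearer to the start site of the repair or replication gene than to that of its partner. No test was made of this count.

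The list of cell cycle and mitosis genes, which lacks MASTL and TACC3 for example, had a gene in 60 divergent pairs. Of these, 48 (80.0%) had a shared region, 22 (36.7%) a gained region and only 2 no parental peak. Of the 48, 15 were kept and 11 had a peak in 1 DMSO library. The 22 members had medians of 9.35 and 9.0, and in 16 of them, in each replicate, the summit was nearer to the start site of the cell cycle gene. Besides KCTD9/CDCA2, LMBRD2/SKP2 had 14.3 and 17.5, and SKP2 targets the CDK inhibitor p27 for destruction. MMUT/CENPQ, with a kinetochore protein, had 17.3 and 19.6, and its summits lay 11.5 and 6.5 bp from the midpoint of a gap of 117 bp. MRPL51/NCAPD2, with a condensin subunit, had 11.9 and 13.5.

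C1orf109/CDCA8, with borealin of the chromosomal passenger complex, had 12.3 and 11.8. ZBTB8OS/RBBP4, with a histone-binding protein of several Rb-associated complexes, had 12.9 and 12.4. FOXM1/RHNO1, a transcription factor of G2/M genes beside a checkpoint protein of the 9-1-1 clamp, had 11.6 and 11.4 with start sites 49 bp apart. RGS5/NUF2, with a kinetochore protein, had 11.5 and 11.7. The log2 ratio of the replicates lay between −0.36 and 0.29 at these 8 members.

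The list of mitochondrial genes was not complete and left out CHCHD7 and RBFA, for example, so its counts cover listed genes only. Among pairs with a listed mitochondrial gene, few had a DMSO peak. Of 79 pairs, 41 (51.9%) had a shared region, 36 (45.6%) a gained one, 3 were kept, 2 had a peak in 1 DMSO library and 27 had no parental peak, while of all 1467 pairs 6.68% were kept and 7.98% had a peak in 1 DMSO library. Median fold enrichment over the 35 members was 7.42 and 7.77. The summit lay nearer to the listed gene in 14 and 10 of the 34 members with 1 listed gene. SARS2/MRPS12 was the best-ranked of the 35, with 23.2 and 14.8, followed by CYB5RL/MRPL37 with 18.5 and 18.1, MRPL51/NCAPD2 and TFB2M/CNST, whose TFB2M is a mitochondrial transcription factor. TCP1/MRPL18 had 15.9 and 12.9, PSMA2/MRPL32 had 9.94 and 10.1, HIRA/MRPL40 had 13.8 and 10.1, and MRPL46/MRPS11, with a mitochondrial ribosomal protein on both strands, had 9.78 and 9.08.

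Other lists were formed by gene name prefixes and stood on both sides of the 59.2% of all pairs. A shared region covered 60.6% of 109 pairs with a gene of RNA processing or translation, 65.4% of 78 with a gene of ubiquitin transfer or the proteasome, 74.5% of 55 with a gene of centrosome or cilium and 49.2% of 59 with a zinc finger gene. Gained regions covered 43.1%, 47.4%, 54.5% and 40.7% of these. Of 15 pairs with a histone gene, none had a gained region, 1 had a region with a peak in 1 DMSO library and 12 had no parental peak.

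**Figure D4:**
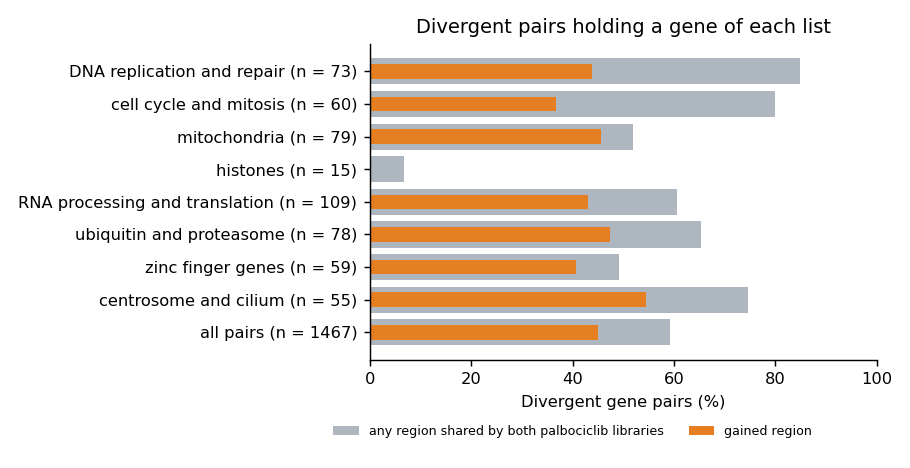
Share of divergent gene pairs that hold a gene of each list, with any region shared by both palbociclib libraries (grey bars) and with a gained region (orange bars), and n as the number of pairs. Grey bars reach 84.9% and 80.0% for the first and second list against 59.2% of all pairs, while the orange bars of those lists stay at 43.8% and 36.7% against 45.1%.

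A list of 24 divergent pairs, called textbook pairs here, was drawn up with earlier results of these data known. It includes the best-ranked member, ARPC5/RGL1, so its counts are descriptions. Of these 24 pairs, 10 were members, beside 45.1% of all divergent pairs. HSPD1/HSPE1, the mitochondrial chaperonins, had 5.45 and 7.80 fold enrichment, and GART/SON, with a purine synthesis enzyme, had 8.05 and 4.68. TRMT2A/RANBP1, with a cofactor of Ran, had 12.02 and 13.1, SURF1/SURF2 had 5.55 and 6.60, MRE11/ANKRD49 had 5.71 and 6.98, and ITGB3BP/EFCAB7 had 6.64 and 4.29. ARPC5/RGL1, TK1/AFMID and SARS2/MRPS12 are given above. All 10, of which 9 are named here, had pileups of 10 or more fragments in both palbociclib replicates.

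Another 8 of these pairs had a peak in 1 DMSO library and were not members for that reason, and 7 of them are given here. NPAT/ATM had 7.93 in DMSO replicate 1, no peak in DMSO replicate 2, and 25.4 and 28.6 with palbociclib. PPAT/PAICS had 4.26 in DMSO replicate 1, then 18.8 and 22.6. RECQL/GOLT1B, PURG/WRN and PDCD10/SERPINI1 likewise had a peak in DMSO replicate 1 only (3.70, 4.49 and 5.73), and UFD1/CDC45 and FANCB/MOSPD2 in DMSO replicate 2 only (5.89 and 7.22). The 4 kept pairs were PRKDC/MCM4, TMEM258/FEN1, CENPX/LRRC45 and INTS7/DTL. INTS7/DTL, with a substrate receptor of the CRL4 ubiquitin ligase, had 13.7 and 12.7 with DMSO and 49.4 and 74.1 with palbociclib. TAP1/PSMB9 had a peak of 8.36 in palbociclib replicate 1 alone, and COL4A1/COL4A2 had none.

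Around the stronger summit of each member, 100 bp to each side were read on both strands for 9 motifs. ETS was found in 36 members (5.58%, exact interval 3.94 to 7.64%), NRF1 in 22 (3.41%), E2F in 37 (5.74%, 4.07 to 7.82%), CRE in 6 (0.930%), CCAAT in 177 (27.4%, 24.03 to 31.1%), GGGCGG in 418 (64.8%, 61.0 to 68.5%), YY1 in 18 (2.79%), TATAAA in 4 (0.620%) and CHR (TTTGAA or TTCGAA), the element of the MuvB complex, in 34 (5.27%). At gained regions of single genes, ETS was in 3.10% (2.59 to 3.68%), CCAAT in 23.8% (22.5 to 25.1%), E2F in 4.73% (4.096 to 5.43%) and GGGCGG in 71.9% (70.5 to 73.3%). The intervals for ETS and for GGGCGG did not overlap those of members, and those for CCAAT and E2F did. The windows also differed in base composition, with a median of 67.7% G and C in members and 71.6% at single genes. At kept regions over divergent pairs, E2F was in 13.4% of 97 windows (7.33 to 21.8%) and CCAAT in 41.2% (31.3 to 51.7%), and only the interval for CCAAT lies above that of members.

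Some motifs sat at the centre of the pair rather than at the Rb summit. Within 100 bp of the midpoint between the start sites, ETS was in 11.2% of members (8.84 to 13.8%) beside 5.58% at the summit, NRF1 in 6.51% (4.73 to 8.70%), CRE in 2.33% and CCAAT in 35.7% (32.0 to 39.5%). E2F was in 5.58% there and 5.74% at the summit, and GGGCGG in 64.8% at both. In bins of 100 bp, ETS was highest on either side of the midpoint, and no bin around the summit held more than 3.41% of members. The 438 divergent pairs with no parental peak had ETS at the midpoint in 9.36% (6.80 to 12.5%), NRF1 in 4.57%, E2F in 2.97% (1.59 to 5.02%), CCAAT in 23.7% (19.8 to 28.0%), GGGCGG in 50.9% (46.1 to 55.7%) and TATAAA in 6.16% (4.101 to 8.84%), against 1.86% (0.965 to 3.23%) of members. Over all 1467 divergent pairs the midpoint window held ETS in 10.4%, NRF1 in 5.66%, E2F in 4.91%, CRE in 2.73%, CCAAT in 31.8%, GGGCGG in 60.1%, YY1 in 2.999%, TATAAA in 3.07% and CHR in 7.98%. The CpG ratio at the midpoint had a median of 0.91 in members and 0.78 in pairs without a peak. A match is a run of letters and not a measured binding site.

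**Figure D5:**
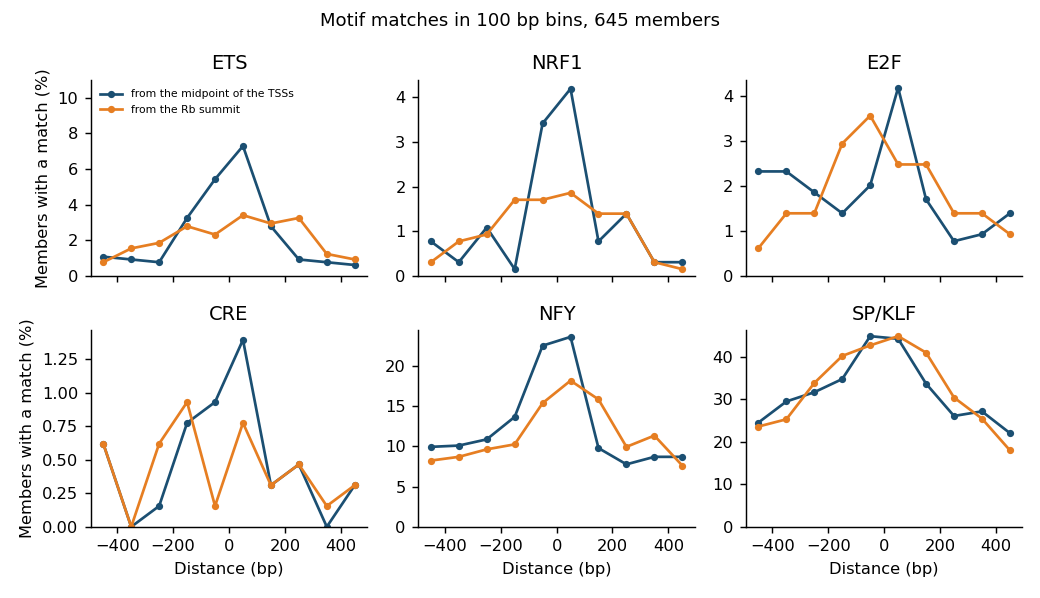
Share of the 645 members with a match to each of 6 motifs (y axes, %, each from 0 on its own scale) in bins of 100 bp, by distance in bp from the midpoint between the start sites (blue) or from the Rb summit (orange). ETS and NRF1 stand highest in the bins beside the midpoint, ETS staying at or below 3.41% around the summit, whereas GGGCGG (SP/KLF) has nearly the same course in both.

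The strength of members with and without a motif at the summit is given as a description. The 177 members with CCAAT had medians of 9.19 and 9.75 against 7.23 and 6.999 in the 468 without it. The 37 with E2F had 10.2 and 8.55 against 7.59 and 7.46, the 18 with YY1 had 10.7 and 10.0 against 7.62 and 7.46, and the 36 with ETS had 6.88 and 6.73 against 7.75 and 7.62. The 6 members with CRE had the highest medians, 11.7 and 13.4. Members with a motif had the higher median in both replicates for 8 of the 9 motifs, and ETS was the exception. Some of these gaps were small, with 7.82 and 7.72 against 7.60 and 7.13 for GGGCGG and 8.15 and 7.84 against 7.65 and 7.49 for CHR. TATAAA rested on 4 members, with 7.53 against 7.49 in replicate 2. A member can hold several motifs, so the 9 comparisons are not independent, and none was tested.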

How the data were processed

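Peak lists of 7 CUT&RUN libraries were analysed, grouped by sample title. Upstream, adapters were removed by the authors with BBDuk and read pairs were placed on hg38 by Bowtie2 2.3.4.1, with duplicates kept. MACS2 2.2.7.1 then called peaks per library against IgG at q 0.05. The deposited fold enrichment is a ratio of pileup to local background at the summit, and the −log10 p and −log10 q values were deposited by the authors with each peak. Pileup and background were recovered here as the whole fragment number and rate that give both deposited values, leaving at most 0.000581 of −log10 p unexplained in the members.

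An overlap of 1 bp or more counted as shared. GENCODE 44 protein-coding transcripts on GRCh38, the authors' build, gave the start sites, and no peak passed a chromosome end. For a pair with several qualifying start sites, both canonical ones were used where their promoters overlapped the region, otherwise the closest. Where a library had several peaks in a region, the one with the highest −log10 q was taken. Percentages have exact 95% binomial intervals, and the only test is an exact permutation over 4 libraries. The members and gene lists were chosen with earlier results of these data known. Named members were the 10 best ranked, the closest and widest pairs, the best ranked 8 of 3 gene lists, textbook pairs, and members with replicate gaps, IgG2a peaks, distant summits or several pairs. A few members and pairs that this rule names are not reported here. Analyses used Python 3.11.15 with scipy 1.17.1 and pysam 0.24.0 and were tested on simulated data. Alternatives were other overlaps, peak limits, start sites, distances, windows and leaving out each library.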

Additional observations from a re-analysis of the deposited data

How the results depend on the processing

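The number of members stayed within 1.5 times of 645 under every alternative except equal list lengths, which gave 16, and it was 684 to 770 when 1 library was left out. The percent of divergent pairs with a shared region, 59.2%, was 48.8% at a fold enrichment of at least 5, 48.1% at a −log10 q of at least 5, 50.8% with 50% reciprocal overlap, 63.7% with canonical start sites, 7.57% with equal lists, 56.2% with a common p limit (chosen after seeing the data), and 59.2% to 65.0% without 1 library. The percent of summits between the start sites, 37.7%, was 40.4%, 39.8%, 38.7% and 41.1% under the first 4 of these, 32.1% with a distance of at most 500 bp, and 34.9% to 38.4% without 1 library. The ratio of median fold enrichment, 1.05, was 1.054, 1.072, 1.142 and 1.064 under the same 4, and 1.057 to 1.075 without 1 library. The ratio of median width, 1.10, was 1.156 with reciprocal overlap, 1.14 with canonical start sites and 1.067 to 1.172 without 1 library. ETS, NRF1 and E2F shares were 2.48%, 1.705% and 3.10% within 50 bp of the summit and 15.7%, 7.91% and 15.2% over whole regions, and without 1 library 4.59 to 5.71%, 3.36 to 3.65% and 4.80 to 6.18%. The difference in list shares at divergent pairs, −6.88 percentage points, was −1.39 with lists of equal length and −5.80 at a palbociclib fold enrichment of at least 5, both chosen after seeing the data. It was −7.33 to −6.43 without 1 library and −6.88 with the replicate block (p = 0.5, exact sign flips of 2 pairs). Of 88 values, 35 moved beyond the replicate spread, the interval or 1.5 times the first value, with the difference in list shares judged by its sign alone, which did not change. The smaller shares at narrower windows and larger ones over whole regions follow from the length searched, and the cause of the other shifts was not tested. Lists hold called peaks only, so signal below the authors' limit in DMSO libraries is not seen.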
